A study of Homo sapiens with 2 samples.

Results

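The 10 genes followed here are used to recognize macrophages and their states: the C1q chain genes C1QA, C1QB and C1QC, together with SPP1, CD163, MRC1, CD68, APOE, TREM2 and A2M. They were chosen by symbol, as 10 of the 32738 genes counted, and each was found once. The cells were nonadherent cells harvested on day 5 of EHT, the endothelial to hematopoietic transition, from CD34+ cells of the human induced pluripotent stem cell line iPS11. The CD34+ cells had been plated on 1 of 4 coating conditions (Uncoated, VCAM1, DLL4 or DLL4+VCAM1), all in the same EHT medium and with no untreated sample outside it. The wells of a condition were pooled and labeled with a hashtag antibody (0252, 0253, 0254 or 0255), and the 4 pools were captured together as 1 library without replicates. No source used here links a hashtag to its coating, and the pools are therefore named by hashtag number.

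Of 10836 barcodes, 8488 were called for a single hashtag, and 7550 of these had at most 36000 unique molecular identifiers (UMIs), at most 6000 genes and at most 18% mitochondrial UMIs. The median kept cell had 18318.5 UMIs, and between 1571 and 2136 cells carried each hashtag. Levels are given as CPM, the UMIs of a gene in a set of cells for every 1000000 UMIs of that set. Ranges in brackets are exact 95% intervals, from the Poisson distribution for CPM and by the Clopper-Pearson method for shares. The interval of a ratio comes from the Clopper-Pearson interval of the share of its upper count in the sum of both counts. All of these cover counting error only. Cells of 1 pool are not replicates of a condition, so no p-value was computed.

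C1q starts the classical complement pathway. Each C1q molecule is built from equal numbers of A, B and C chains, encoded by neighboring genes, and in most tissues macrophages and some dendritic cells are its main source. SPP1 encodes osteopontin, a secreted protein that binds integrins and CD44, and in macrophages it is known from lipid-handling, scar-associated and tumor-associated states. CD163 is the receptor for hemoglobin bound to haptoglobin, MRC1 the mannose receptor, CD68 a lysosomal membrane protein, APOE a lipid carrier, TREM2 a lipid-sensing receptor that signals through TYROBP, and A2M a secreted inhibitor of proteases.

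On hg19, the genome build of the counts, the C1q genes lie in the order C1QA (chromosome 1, 22961570 to 22966171), C1QC (22969507 to 22974603) and C1QB (22979255 to 22988130), all on the plus strand. SPP1 lies on chromosome 4 from 88896819 to 88904684, also on the plus strand. Because the results turn on how C1q genes were detected with each other and with SPP1, the 250 bases before the start of C1QA, C1QB and SPP1 are shown for comparison, from the promoter table of RefSeq, which is on GRCh38.p14. Of the 10 genes, 7 matched that table, and C1QC, MRC1 and A2M did not. The table lists a further start for C1QA, 22636628, downstream of the start used here, 22636463. Capitals mark letters that are known as cores bound by transcription factors of blood cells and were searched on both strands: GAGGAA (PU.1), TGCTGA (MAF family), TGAGTCA (AP-1) and ACCACA (RUNX family).

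C1QA, chr1:22636213-22636462, plus strand: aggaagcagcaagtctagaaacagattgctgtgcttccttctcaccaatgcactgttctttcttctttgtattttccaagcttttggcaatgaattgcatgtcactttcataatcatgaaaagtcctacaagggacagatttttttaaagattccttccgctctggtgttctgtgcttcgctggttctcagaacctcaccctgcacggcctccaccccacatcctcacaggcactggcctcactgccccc

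C1QB, chr1:22652986-22653235, plus strand: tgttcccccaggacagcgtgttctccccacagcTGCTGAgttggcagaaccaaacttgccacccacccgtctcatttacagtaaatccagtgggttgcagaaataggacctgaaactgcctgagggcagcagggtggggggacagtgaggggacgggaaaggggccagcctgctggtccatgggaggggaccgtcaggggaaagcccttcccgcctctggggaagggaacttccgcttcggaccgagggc

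SPP1, chr4:87975464-87975713, plus strand: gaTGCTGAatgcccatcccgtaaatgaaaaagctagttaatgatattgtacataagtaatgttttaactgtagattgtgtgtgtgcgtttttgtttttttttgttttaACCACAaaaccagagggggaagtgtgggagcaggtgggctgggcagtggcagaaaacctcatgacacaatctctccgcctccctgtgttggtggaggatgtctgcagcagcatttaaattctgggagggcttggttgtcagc

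The window shown before C1QA held none of these letters, and the window before its further start held TGCTGA at 117 to 112 bases. The window before C1QB held TGCTGA, 217 to 212 bases before the start, and the window before SPP1 held TGCTGA at 248 to 243 bases and ACCACA at 142 to 137 bases. Among the 35116 promoter windows of this length, 14.0% held TGCTGA, 11% ACCACA, 23.6% GAGGAA and 4.2% TGAGTCA. Such matches describe the letters and are not evidence of binding.

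The 3 C1q genes tended to be found in the same cells. C1QA had a UMI in 1093 cells (14.5%, 13.7 to 15.3%), C1QB in 966 cells and C1QC in 1317 cells. When each cell was thinned to 5000 UMIs, which left out 68 shallower cells, C1QA and C1QB were found together in 469 of 7482 cells, 7.26 times as many as independent detection would give. For C1QA with C1QC and for C1QB with C1QC the ratio was 6.72. Correlations of log counts over the thinned cells were 0.763 for C1QA with C1QB, 0.822 for C1QA with C1QC and 0.797 for C1QB with C1QC, as a description over cells of 1 library.

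A cell was called C1Q-positive when the 3 genes summed to at least 10 UMIs. By this measure 645 cells (8.54%, 7.92 to 9.20%) were positive, and they held 88.5% of all C1q UMIs. The median C1Q-positive cell had 23 UMIs and the highest 271. In 580 of them (89.9%) all 3 genes were seen, in 60 cells 2 genes and in 5 cells 1 gene. The same genes chose these cells, so a high share was partly fixed in advance. Over all kept cells, 681 had a UMI of all 3 genes, 305 of 2 genes and 723 of only 1. Below the limit, 335 cells had 3 to 9 C1q UMIs, 729 had 1 or 2, and 5841 (77.4%) had none.

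The chains kept similar proportions from hashtag to hashtag. In C1Q-positive cells C1QA gave 28.0% of the C1q UMIs (27.4 to 28.6%), C1QB 28.0% (27.4 to 28.7%) and C1QC 44% (43.3 to 44.7%). The assay reads the 3′ end of a transcript, so these shares are of molecules captured and are not scaled by length. By hashtag, C1QA ranged from 26.3 to 29%, C1QB from 26.9 to 30.9% and C1QC from 42.8 to 45%. The share of C1QB was 30.9% (29.4 to 32.4%) for hashtag 0255, above the 27.0% (25.8 to 28.2%) of hashtag 0253. These intervals count UMIs and do not cover differences between cells.

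SPP1 was concentrated in fewer cells than C1q. It had 39026 UMIs, or 275 CPM (272 to 277), against 23176 UMIs and 163 CPM (161 to 165) for the C1q genes together. At least 10 SPP1 UMIs were found in 272 cells (3.60%, 3.19 to 4.05%), called SPP1-positive, and these held 94.7% of all SPP1 UMIs. The 100 cells with the most SPP1 held 78.6% of it, and the 100 cells with the most C1q held 34.2% of that. The median SPP1-positive cell had 54 UMIs, the 90th percentile was 374 and the highest 1271. Over cells the variance of the SPP1 count was 352 times its mean, and for C1QC it was 18.7 times.

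C1q and SPP1 marked overlapping but different sets of cells. Both were positive in 135 cells, 5.81 times the 23.2 cells that independent calls would give. These were 20.9% (17.9 to 24.3%) of the C1Q-positive and 49.6% (43.5 to 55.7%) of the SPP1-positive cells. A further 510 cells were positive for C1Q alone, 137 for SPP1 alone and 6768 for neither. Of all SPP1 UMIs, 49.9% lay in C1Q-positive cells.

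**Figure D1:**
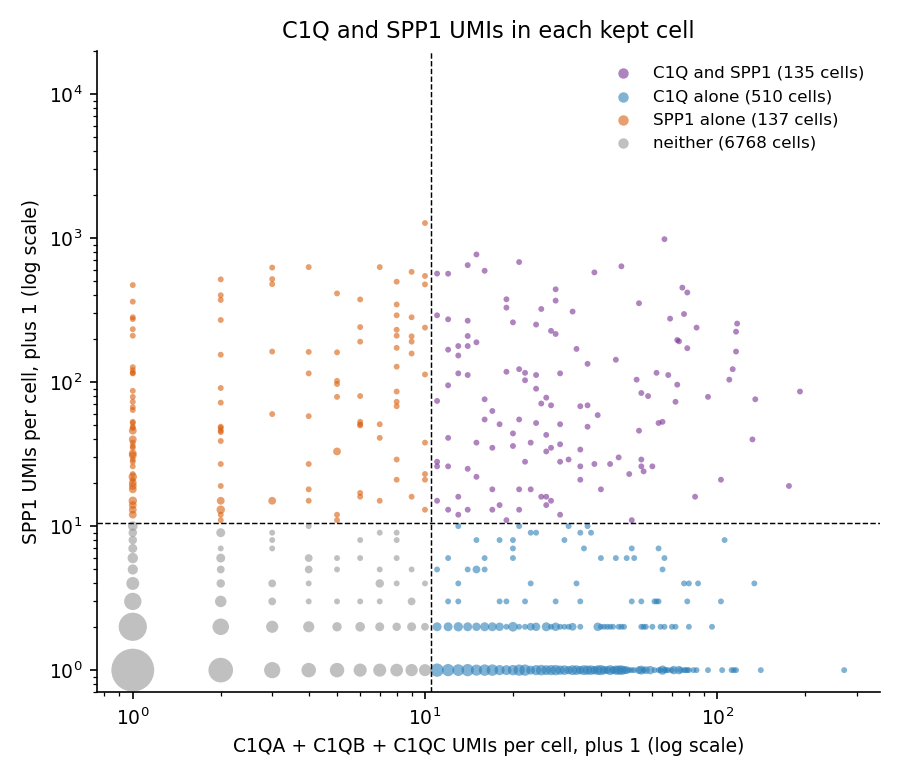
UMIs of the 3 C1q genes summed (x axis, plus 1, log scale) and of SPP1 (y axis, plus 1, log scale) in the 7550 kept cells; larger points stand for more cells with the same counts, and dashed lines mark 10 UMIs. The 135 cells positive for both lie in the upper right, while 510 cells were positive for C1Q alone and 137 for SPP1 alone.

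The share of SPP1-positive cells was lowest without C1q and highest in the few cells with the most C1q, with a level stretch between. SPP1-positive cells were 0.907% (0.680 to 1.19%) of the cells without C1q UMIs, 3.84% (2.57 to 5.50%) of those with 1 or 2, and 16.7% (12.9 to 21.2%) of those with 3 to 9. Above the limit the share was 19.7% (15.9 to 23.9%) at 10 to 29 UMIs and 20.4% (15.4 to 26.3%) at 30 to 99, so that these 3 bins had overlapping intervals. At 100 or more UMIs of C1q, 10 of 19 cells were SPP1-positive (52.6%, 28.9 to 75.6%). In the other direction, C1Q-positive cells were 6.38% of the cells without SPP1, 27.5% at 3 to 9 SPP1 UMIs and 54.9% (44.7 to 64.8%) at 100 or more.

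Cells positive for SPP1 alone were not free of C1q. Of the 137, 53 had no C1q UMI, 28 had 1 or 2 and 56 had 3 to 9, and their C1q level was 161 CPM (145 to 178) against 17.6 CPM (16.9 to 18.3) in the cells positive for neither. C1Q-alone cells had a C1q level of 2034 CPM (2002 to 2066) and an SPP1 level of 42.6 CPM (38.0 to 47.5), against 13.3 CPM (12.7 to 14.0) of SPP1 in cells positive for neither. Of the 510 cells, 25.9% had an SPP1 UMI.

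Among C1Q-positive cells the amounts of C1q and SPP1 showed little relation. In the 642 of these cells with at least 5000 UMIs, thinned to that depth, the correlation of log counts was 0.0691 for summed C1q with SPP1. SPP1 correlated with A2M at 0.533, with TREM2 at 0.514 and with APOE at 0.438, and with the lysosomal CD68 at 0.238. Summed C1q correlated with CD68 at 0.347, with APOE at 0.234, with A2M at 0.159 and with TREM2 at 0.148. The choice of C1Q-positive cells cuts the range of C1q but not that of SPP1. In 268 SPP1-positive cells, chosen by SPP1 and thinned alike, summed C1q correlated with SPP1 at 0.208. There APOE had 0.420 with C1q and 0.318 with SPP1, and CD68 had 0.558 and 0.189. A2M had 0.290 with C1q and 0.373 with SPP1, and TREM2 was also higher with SPP1. The order for APOE thus depended on which gene chose the cells. These values describe cells of 1 library that share their depth and free RNA.

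**Figure D2:**
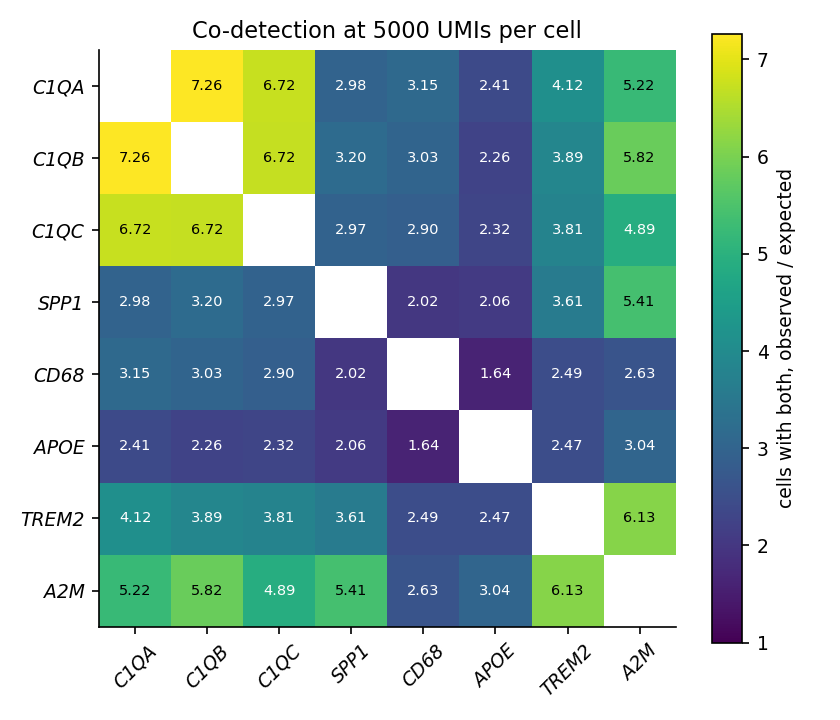
Observed over expected number of cells with a UMI of both genes, in 7482 cells thinned to 5000 UMIs, for 8 of the genes (CD163 and MRC1 had too few UMIs). The C1q genes pair at 6.72 to 7.26, and CD68 with APOE is lowest at 1.64. A2M pairs with TREM2 at 6.13, with SPP1 at 5.41 and with the C1q genes at 4.89 to 5.82.

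APOE, TREM2 and A2M were highest where both C1q and SPP1 were positive. APOE had 957 CPM (916 to 999) in cells positive for both, 265 CPM (254 to 277) in C1Q-alone, 321 CPM (298 to 345) in SPP1-alone cells and 41.7 CPM (40.6 to 42.9) in cells positive for neither. The intervals of C1Q-alone and SPP1-alone cells did not overlap, but the levels lay near each other, and both were well above the rest. TREM2 had 408, 100, 269 and 13.8 CPM in the same order, and A2M had 377, 59.3, 189 and 5.68 CPM. Both genes were thus higher in SPP1-alone than in C1Q-alone cells, by 1.42 and 1.66 on the log2 scale with 1 CPM added.

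CD68 was higher in C1Q-alone than in SPP1-alone cells. It had 194 CPM (176 to 214) in cells positive for both, 99.9 CPM (92.9 to 107) in C1Q-alone cells, 52.5 CPM (43.6 to 62.7) in SPP1-alone cells and 18.3 CPM (17.6 to 19.1) in cells positive for neither. A CD68 UMI was seen in 81.5%, 65.5%, 46.7% and 26.7% of these cells, and after thinning in 56.0%, 35.2%, 18.7% and 9.20%.

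The scavenger receptors CD163 and MRC1 had few UMIs. A CD163 UMI was seen in 11.9% of cells positive for both and in 3.14% of C1Q-alone cells. For MRC1 these shares were 23.7% and 12.9%. CD163 had 67 UMIs in 46 of 7550 cells (0.609%, 0.446 to 0.812%), and 53 of these UMIs lay in C1Q-positive cells. Its level was 12.3 CPM (8.03 to 18) in cells positive for both and 3.59 CPM (2.37 to 5.23) in C1Q-alone cells. SPP1-alone cells had 1 UMI of it, and cells positive for neither had 13. MRC1 had 180 UMIs in 133 cells, with 21.3 CPM (15.5 to 28.5), 12.8 CPM (10.3 to 15.6), 3.44 CPM (1.49 to 6.78) and 0.238 CPM in the same order of groups. The hg19 annotation carries a near-identical copy, MRC1L1, with 39 UMIs here, so that the level of MRC1 is uncertain; with the copy's UMIs added it was 1.54 CPM over all cells in place of 1.27 CPM.

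Because C1q and SPP1 chose the groups, genes per cell were counted over the other 6 (CD163, MRC1, CD68, APOE, TREM2 and A2M). The median number of these with a UMI was 4 in cells positive for both, 2 in C1Q-alone, 3 in SPP1-alone cells and 1 in the rest. At least 3 of the 6 were found in 120 of 135 cells positive for both (88.9%, 82.3 to 93.6%), in 201 of 510 C1Q-alone cells (39.4%, 35.1 to 43.8%), in 92 of 137 SPP1-alone cells (67.2%, 58.6 to 74.9%) and in 222 of 6768 cells positive for neither (3.28%, 2.87 to 3.73%). The 4 intervals did not overlap. The median depths were 13830, 13448, 16349 and 18706.5 UMIs, so cells positive for both were not the deepest, and SPP1-alone cells were deeper than C1Q-alone cells.

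**Figure D3:**
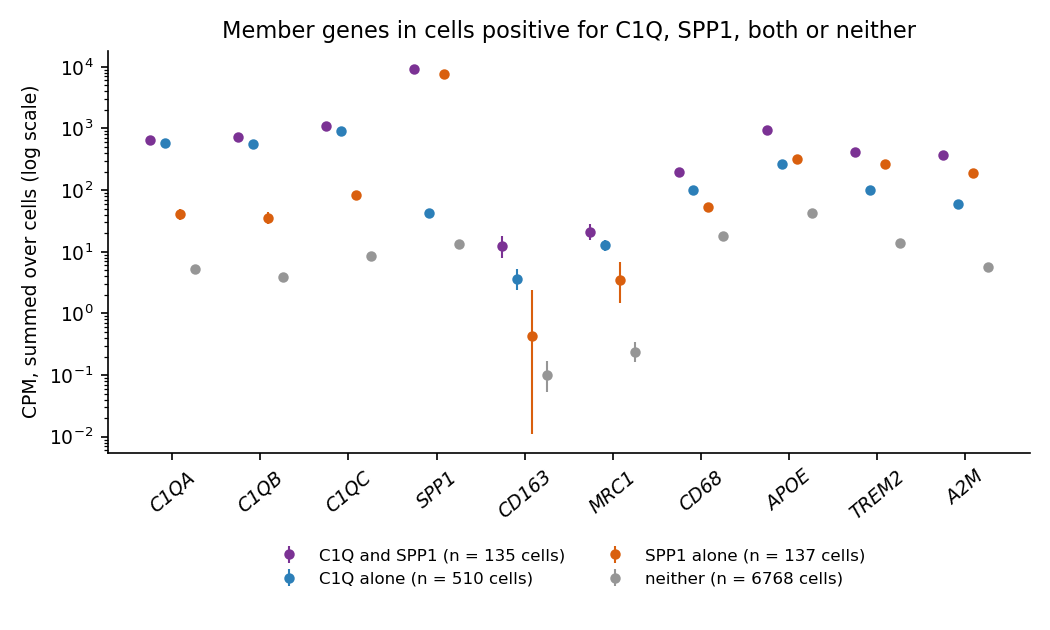
Level of each gene (CPM, log scale, with exact Poisson 95% intervals) in cells positive for C1Q and SPP1, C1Q alone, SPP1 alone and neither. TREM2, A2M and SPP1 are higher in SPP1-alone than in C1Q-alone cells, CD68 and the C1q genes the other way round, and CD163 and MRC1 stay at or under 21.3 CPM in each group.

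Set against all genes, 12272 genes had at least 200 UMIs and could be compared, among them 8 of the 10 (CD163 and MRC1 had fewer). All 8 were at least 2-fold higher in C1Q-positive than in C1Q-negative cells, a size reached by 7.04% of the genes compared, but the C1q genes themselves chose these cells. The log2 differences of the other 5 ran from 2.61 for CD68 to 3.77 for SPP1. All 8 were also at least 2-fold higher in SPP1-positive than in SPP1-negative cells, against 5.9% of genes, with log2 differences from 2.35 for CD68 to 4.86 for A2M and, for SPP1, which chose the cells, 9.03. Between SPP1-alone and C1Q-alone cells, 3 of the 8 were at least 2-fold higher (SPP1, TREM2 and A2M) against 3.7% of genes, and 3 were at least 2-fold lower (the C1q genes) against 4.64%; of these, TREM2 and A2M were not used to choose the cells. The median log2 difference over all genes was -0.12 in the first and second comparison and 0.01 in the third.

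Lists of genes around the 10 showed where C1Q-positive cells differed from the others. For these lists, 7.04% of all genes compared were at least 2-fold higher in C1Q-positive and 5.9% in SPP1-positive cells. Between SPP1-alone and C1Q-alone cells, 3.7% were at least 2-fold higher and 4.64% at least 2-fold lower. Of the HLA class II list, whose products present antigen, 10 of 10 genes were at least 2-fold higher in C1Q-positive cells, with a median log2 difference of 3.72. The 4 with the largest differences were HLA-DQA1 at 4.54, HLA-DRB1 at 3.93, HLA-DPA1 at 3.92 and HLA-DQB1 at 3.89. In SPP1-positive over SPP1-negative cells, 9 of 10 were at least 2-fold higher, with a median of 1.68. All 10 were at least 2-fold lower in SPP1-alone than in C1Q-alone cells, with a median of -2.55. These groups also differed in the clusters that their cells came from, given below. The part of cell type in this and the following comparisons of the groups was not tested. HLA-DRA, the gene of the alpha chain of HLA-DR, had 1709 CPM in C1Q-alone, 1050 CPM in doubly positive, 316 CPM in SPP1-alone cells and 107 CPM in the rest.

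Of the 16 macrophage markers other than the 10 genes, 11 had enough UMIs, and 9 of these were at least 2-fold higher in C1Q-positive cells, against 7.04% of all genes compared. The markers left out, named here for their low counts over all kept cells, were LYVE1 (96 UMIs), TIMD4 (18), MARCO (11), MSR1 (1) and LILRB4 (0). CD14, the lipopolysaccharide coreceptor, was highest at a log2 difference of 5.57, followed by SLCO2B1 at 4.68, the Fc receptor gene FCGR3A at 4.07 and MS4A7 at 4.03. SLCO2B1 had 391 and FCGR3A 361 UMIs over all kept cells, with 0.230 and 0.638 CPM in cells positive for neither. Such genes passed the limit of 200 UMIs mainly through the cells where they were high, so their large differences were partly fixed in advance. In SPP1-positive over SPP1-negative cells, 10 of 11 of these markers were at least 2-fold higher, with a median log2 difference of 3.02. Between SPP1-alone and C1Q-alone cells, 6 of 11 were at least 2-fold lower in SPP1-alone cells and none at least 2-fold higher. CD14 had 215 CPM in cells positive for both, 72.0 CPM in C1Q-alone and 10.3 CPM in SPP1-alone cells.

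The lysosome and lipid list showed the other direction for part of its genes. Of 19 genes, 15 were at least 2-fold higher in C1Q-positive and 17 in SPP1-positive cells. The largest differences for C1q were those of the fatty acid receptor gene CD36 at 3.47 and the cathepsin genes CTSB at 2.69, CTSL at 2.49 and CTSS at 2.46. Between SPP1-alone and C1Q-alone cells 7 of 19 were at least 2-fold higher and 3 at least 2-fold lower, against 3.7% and 4.64% of all genes compared. CTSL had 129 CPM in SPP1-alone and 29 CPM in C1Q-alone cells, while CTSS had 54.6 and 114 CPM. FABP4, a fatty acid binding protein gene named here after its values were seen, had 496 CPM in SPP1-alone and 36.8 CPM in C1Q-alone cells, but only 13.1% of the SPP1-alone cells had a UMI of it and 1 cell gave 24.9% of them.

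In the remaining lists a smaller share of genes was higher in C1Q-positive cells, where 7.04% of all genes compared were. The share of all genes at least 2-fold lower in C1Q-positive cells was not counted. Of 13 transcription factor genes, 7 were at least 2-fold higher in C1Q-positive cells, among them MAF at 3.59, TFEC at 1.18 and IRF8 at 1.14. GATA1 and GATA2, named after their values were seen, were at least 2-fold lower, at -2.62 and -3.16. Of 7 genes of heme and iron handling 4 were higher, led by heme oxygenase HMOX1 at 3.86, SLC11A1 at 2.36, and the ferritin chains FTL at 1.41 and FTH1 at 1.04. Of 13 partners and receptors, 4 were higher, namely the TREM2 adaptor TYROBP at 2.08, LRP1 at 1.55, ITGB5 at 1.28 and SYK at 1.13. The osteopontin receptor gene CD44 at -1.03 and the integrin gene ITGA9 at -1.18, named after their values were seen, were lower. Of 11 other complement genes 3 were higher: C3 at 2.74, C3AR1 at 2.13 and ITGAM at 1.48.

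Markers of other cell types were counted in the same groups. Of genes with at least 200 UMIs, 4 of 5 dendritic markers were at least 2-fold higher in C1Q-positive than in C1Q-negative cells. At least 2-fold lower were 6 of 9 neutrophil, 10 of 10 erythroid, 5 of 6 megakaryocyte, 5 of 6 eosinophil, 3 of 4 mast cell, 6 of 7 progenitor and 1 of 1 endothelial markers. Of 9 stromal markers 1 was higher and 3 lower. Of all genes compared, 7.04% were at least 2-fold higher in C1Q-positive cells, and the share at least 2-fold lower was not counted. Between SPP1-alone and C1Q-alone cells, 7 of 9 stromal and 5 of 10 erythroid markers were at least 2-fold higher in SPP1-alone cells. Of all genes compared, 3.7% were. At least 10 UMIs of the erythroid list were found in 1.48% of cells positive for both, 0.784% of C1Q-alone, 2.19% of SPP1-alone cells and 8.13% of the rest. For the stromal list the shares were 2.22%, 0.392%, 4.38% and 1.37%, for the neutrophil list 17.8%, 15.5%, 21.9% and 27.4%, and for the progenitor list 0.741%, 1.76%, 3.65% and 34.8%. The dendritic list reached 10 UMIs in 4.44%, 15.3%, 6.57% and 1.39% of the cells. The mast cell, megakaryocyte and eosinophil lists reached it in 0%, 10.2% and 5.84% of SPP1-alone cells, against 13.8%, 9.47% and 11.9% of the rest. Single cells can carry such a list: 2 of the 137 SPP1-alone cells had at least 100 UMIs of erythroid and 4 of stromal genes. For each of the 5 erythroid genes, 1 cell gave between 69.0% (HBG2) and 100% (HBA1) of the SPP1-alone UMIs. For the 7 stromal genes this ran from 6.98% (COL1A2, seen in 39.4% of SPP1-alone cells) to 79.6% (ACTA2). Without the cells that had at least 10 UMIs of erythroid or stromal genes, 20.5% of the C1Q-positive cells were SPP1-positive and 50.4% of the SPP1-positive cells C1Q-positive. Scrublet called 12 of the 645 C1Q-positive cells doublets, none of the 137 SPP1-alone cells and 51 of the 6768 cells positive for neither. With so few calls, none among 137 cells does not clear them of doublets.

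Across the thinned cells, the genes most like summed C1q, outside the 10, were mostly of HLA class II. They were HLA-DRA with r = 0.701, HLA-DRB1 at 0.687, HLA-DPA1 at 0.684, the invariant chain gene CD74 at 0.641, TYMP at 0.598, HLA-DMA at 0.583, FTL at 0.572, HLA-DQB1 at 0.572, SAT1 at 0.565 and IGSF6 at 0.551. The genes most like SPP1 had lower values, among them FABP3, a fatty acid binding protein gene, at 0.402, the tetraspanin gene CD9 at 0.388, FTL at 0.361, CTSB at 0.349, RAMP1 at 0.346, the interleukin-1 antagonist gene IL1RN at 0.345, CHI3L1 at 0.338, CTSL at 0.315 and MYOZ1 at 0.310. FTL, the ferritin light chain, was the 1 gene in both lists. HLA-DRA had r = 0.200 with SPP1, and FABP3 had r = 0.25 with C1q. These are correlations over 7482 cells of 1 library, ranked among 11634 genes.

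Within C1Q-positive cells, those ranked highest for SPP1 (162 cells with 3 or more UMIs, median 49) were compared with the cells without SPP1 (378 cells). Their C1q levels were 2477 and 2057 CPM. APOE was 1.97, TREM2 2.10 and A2M 2.88 higher on the log2 scale with 1 CPM added, CD68 was 0.92 higher, and the C1q genes differed by 0.17 to 0.35. Of 4646 genes compared, 76 were at least 2-fold higher and 49 at least 2-fold lower in the SPP1-high cells. A gene was compared when the groups together had at least 200 UMIs of it. Some genes passed mainly through the group where they were high, as IDO1 did with 220 UMIs in SPP1-low and 11 in SPP1-high cells. Furthest up were the secreted chitinase-like gene CHI3L1 at 3.47, CTSL at 3.05, the collagen gene COL1A2 at 3.03, HBG2 at 3.02, RAMP1 at 2.62, IL4I1 at 2.60, the chemokine gene CCL2 at 2.60, IL1RN at 2.58, TIMP3 at 2.54 and FABP3 at 2.32. For the fetal globin gene HBG2, 1 cell gave 89.2% of the UMIs, and for CCL2 1 cell gave 43.7%, whereas COL1A2 was seen in 44.4% of the SPP1-high and 8.99% of the SPP1-low cells. Furthest down were IDO1 at -2.96, the lymphotoxin gene LTB at -2.67, CLEC4A at -1.98, the chemokine receptor gene CCR6 at -1.60, FAM49A at -1.59, ANXA3 at -1.55, ACAP1 at -1.55, AGPAT9 at -1.52, PRMT7 at -1.52 and the integrin gene ITGB7 at -1.47. LTB had 125 CPM in the SPP1-high and 804 CPM in the SPP1-low cells. IDO1 was also the leading gene of cluster 2, described below. The clusters were not held equal between these groups, and their part in the differences was not tested.

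To place the 10 genes among cell types, cells were clustered with these genes left out of the variable genes, which gave 11 clusters. Markers were counted when at least 2-fold higher than in other cells and seen in 10% or more of the cluster. A cluster was named when 1 type had the most such markers, without a tie, and a marker of it was among the 10 leading genes, a condition set with the clusters in view. Cluster 6 (518 cells) was macrophage-like, with 9 of 16 markers, and was led by FABP4, CD14 and NMRK2. Cluster 2 (1040 cells), led by IDO1, HLA-DQB1 and CD207, had 4 dendritic and 4 macrophage markers and stayed unnamed. Of the others, cluster 3 was neutrophil-like, cluster 5 erythroid-like, cluster 8 eosinophil-like and cluster 9 stromal-like. Cluster 7, led by PPBP and TUBB1, had 7 erythroid and 7 megakaryocyte markers, and it stayed unnamed like clusters 0, 1, 4 and 10. Cluster 4 had 4 of 7 mast cell and basophil markers and cluster 10 had 2 of 16 macrophage markers, none of them among the leading genes.

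Most C1q and SPP1 UMIs lay in clusters 6 and 2. Cluster 6 held 57.6% of the C1q and 78.2% of the SPP1 UMIs, at 1896 CPM (1864 to 1928) and 4332 CPM (4283 to 4381). Of its cells 64.5% (60.2 to 68.6%) were C1Q-positive and 34.4% (30.3 to 38.6%) SPP1-positive. Cluster 2 held 34.8% of the C1q and 14.5% of the SPP1 UMIs, and 26.1% (23.4 to 28.8%) of its cells were C1Q-positive and 6.54% (5.11 to 8.22%) SPP1-positive. The ratio of SPP1-positive to C1Q-positive cells thus differed between the clusters. Cluster 6 had 334 C1Q-positive cells, 101 of them positive for both, and cluster 2 had 271, 26 of them positive for both. Of the SPP1-alone cells 77 were in cluster 6, 42 in cluster 2 and 7 in cluster 3. CD163 had 6.95 CPM in cluster 6 and 0.169 CPM in cluster 2, and TREM2 had 254 and 52.9 CPM. Cluster borders moved with the starting seed of the algorithm: with 5 other seeds the cluster with the most C1q had 830 to 973 cells and 1191 to 1365 CPM of C1q.

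The 27 C1Q-positive cells of the neutrophil-like cluster differed in their chains. C1QB gave 15.2% (12.3 to 18.4%) of their C1q UMIs and C1QA 37.5% (33.5 to 41.6%), against 27.7% (26.9 to 28.5%) and 29% (28.2 to 29.8%) in cluster 6. These 27 cells held 573 C1q UMIs, 76 of them in 1 cell. The intervals count UMIs and do not cover differences between cells. In cells of the neutrophil-like cluster under 10 UMIs of C1q and of SPP1, C1QB again gave 12.8% (9.29 to 17%) and C1QA 43.5% (37.9 to 49.1%). This was not particular to that cluster. In cluster 6 such cells had 16.7% (12.9 to 21.2%) and 35.5% (30.4 to 40.9%), with overlapping intervals. In cluster 2 they had 23.2% (20.8 to 25.8%) and 25.7% (23.1 to 28.3%). The C1q level of such cells in the neutrophil-like cluster was 18.9 CPM (16.9 to 21.1), the highest among the clusters with few positive cells apart from the stromal-like cluster.

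Single SPP1 UMIs were found in every named cell type. Over all kept cells 21.5% had an SPP1 UMI, but so did 18.9% (14.6 to 24.0%) of the eosinophil-like cells and 15.8% (13.0 to 18.9%) of the erythroid-like cells, at median depths of 20668 and 21263.5 UMIs. Macrophage-like cells, with a median of 12557.5 UMIs, reached 53.1% (48.7 to 57.5%). After thinning to 5000 UMIs the shares were 3.87% (1.95 to 6.82%) in the eosinophil-like, 3.13% (1.89 to 4.85%) in the erythroid-like and 45.6% (41.2 to 50.0%) in the macrophage-like cluster. For summed C1q, 8.42% of the eosinophil-like and 8.06% of the erythroid-like cells had a UMI, against 89.6% of the macrophage-like cells. The stromal-like cluster stood apart from the other types, with an SPP1 UMI in 64.6% (54.4 to 74.0%) of its 99 cells and in 43.8% (33.3 to 54.7%) after thinning.

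Levels outside positive cells, where free RNA can give UMIs, were read from 8 clusters with few positive cells (0, 1, 3, 4, 5, 7, 8 and 9), in the 5912 cells with fewer than 10 UMIs of C1q and of SPP1. There C1q had 7.18 CPM (6.70 to 7.68) and SPP1 11.2 CPM (10.6 to 11.8), which comes to 0.137 and 0.214 UMIs in a cell of the median depth. The ratio of SPP1 to C1q UMIs was 1.56 (1.43 to 1.71) in these cells and 1.68 (1.66 to 1.71) over all kept cells. These ratios are not directly comparable, because the choice of low cells cuts SPP1 and C1q unequally. SPP1-positive cells held 94.7% of the SPP1 UMIs, and C1Q-positive cells 88.5% of the C1q UMIs. The neutrophil-like cluster alone gave 313 of the 833 C1q UMIs of the low cells. SPP1 lay between 8.38 and 12.8 CPM in 7 of these clusters. C1q lay between 3.15 and 5.63 CPM in 6 of them and at 18.9 CPM in the neutrophil-like cluster, where the ratio of SPP1 to C1q was 0.677 (0.566 to 0.809), while in the other 7 it ran from 1.81 to 2.68. The stromal-like cluster had 59.9 CPM (47.4 to 74.7) of C1q and 112 CPM (94.9 to 132) of SPP1, in 92 cells. With 5 SPP1-positive of its 99 cells (5.05%) it had the highest such share of the 8, and it was kept among them for its small size. It gave 148 of the 1301 SPP1 UMIs and 79 of the 833 C1q UMIs of the low cells. Low cells of clusters 2 and 6 had a ratio of 0.303 (0.268 to 0.343) and 0.272 (0.213 to 0.343), with C1q at 88.0 and 235 CPM.

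APOE, CD68 and TREM2 were not in the same proportion to C1q and SPP1 in these cells as over all kept cells. The choice of low cells cuts C1q and SPP1 but not APOE, CD68, TREM2 or A2M. A higher proportion than over all kept cells was therefore partly fixed in advance. Per UMI of C1q or SPP1, the low cells of the 8 clusters had 2.25 APOE UMIs (2.14 to 2.37), against 0.164 over all kept cells. For CD68 the values were 0.864 and 0.0590, for TREM2 0.516 and 0.0650, and for A2M 0.105 and 0.0390. The levels of these genes also differed among the clusters. APOE ran from 12.1 CPM (9.44 to 15.2) in eosinophil-like cells to 72.6 CPM in erythroid-like, 89.2 CPM in cluster 4 and 401 CPM (368 to 437) in stromal-like cells. TREM2 had 32.3 CPM (29.7 to 35.2) in neutrophil-like and 16.7 CPM (13.5 to 20.4) in cluster 7, but 0.498 CPM (0.183 to 1.08) in cluster 4. CD68 had its highest level there, 37.4 CPM (34.5 to 40.5), in neutrophil-like cells.

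**Figure D4:**
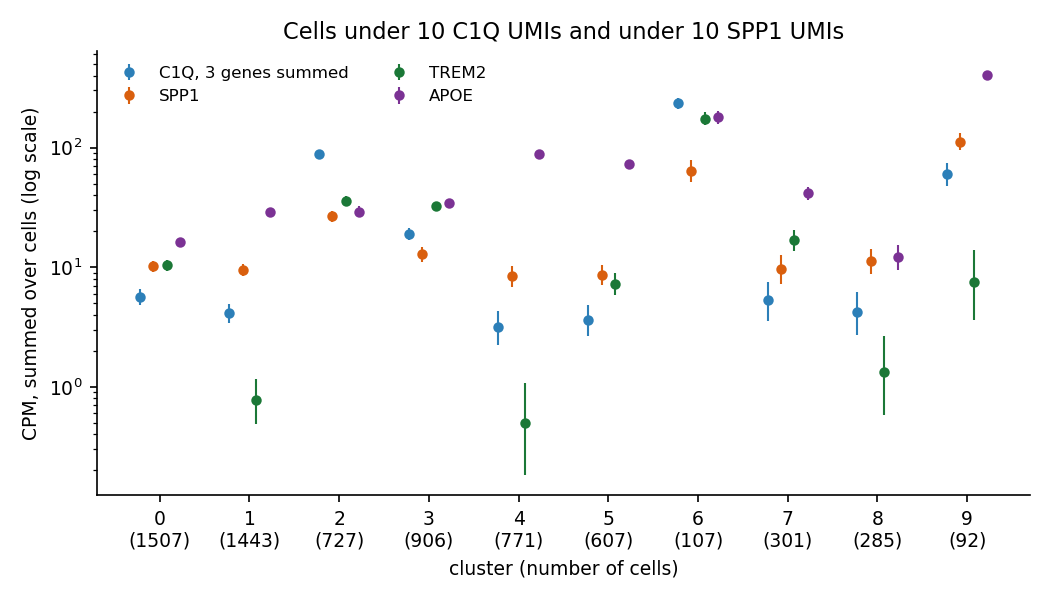
Levels of summed C1q, SPP1, TREM2 and APOE (CPM, log scale, with exact Poisson 95% intervals) in cells with fewer than 10 UMIs of C1q and of SPP1, by cluster, with the number of such cells in brackets. SPP1 stays near 10 CPM outside clusters 2, 6 and 9, while TREM2 ranges from 0.498 to 174 CPM and APOE from 12.1 to 401 CPM.

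Over all kept cells of a hashtag, SPP1, A2M and TREM2 stood out in hashtag 0253, and summed C1q did not. SPP1 had 171 CPM (167 to 175) for hashtag 0252, 586 CPM (578 to 593) for 0253, 153 CPM (149 to 157) for 0254 and 150 CPM (146 to 155) for 0255. The highest level was 3.90 times the lowest (3.77 to 4.03), and the other 3 hashtags lay close together. Intervals of such ratios between hashtags, here and below, count UMIs and do not cover differences between cells. Summed C1q had 174, 161, 166 and 146 CPM in the same order, with a ratio of 1.19 (1.15 to 1.24) between hashtags 0252 and 0255.

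A2M, TREM2, APOE and CD68 were highest for hashtag 0253 as well. A2M had 9.43, 32.0, 12.2 and 13.5 CPM and TREM2 22.3, 48.9, 19.9 and 19.9 CPM in the order of hashtag numbers, ratios of 3.40 (3.03 to 3.82) and 2.46 (2.24 to 2.71) between highest and lowest. APOE had 55.7, 89.5, 75.4 and 66.3 CPM, a ratio of 1.61 (1.52 to 1.70). CD68 had 28.8, 31.5, 20.6 and 20.3 CPM, a ratio of 1.55 (1.40 to 1.71). The CD68 intervals of hashtags 0252 (27.1 to 30.5 CPM) and 0253 (29.7 to 33.3 CPM) overlapped. Of the 8 genes with enough UMIs, 5 reached a ratio of 1.5 with 1 CPM added, against 8.69% of the 12272 genes compared. MRC1 was highest for hashtag 0252, at 2.40 CPM against 0.631 CPM for 0255, from few UMIs.

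The share of C1Q-positive cells was 8.94% (7.77 to 10.2%), 8.52% (7.33 to 9.83%), 9.10% (7.82 to 10.5%) and 7.38% (6.14 to 8.79%) for hashtags 0252 to 0255, with overlapping intervals. SPP1-positive cells were 2.53% (1.90 to 3.29%), 6.66% (5.61 to 7.85%), 2.76% (2.06 to 3.61%) and 2.16% (1.5 to 3.01%). Of the 137 SPP1-alone cells 83 carried hashtag 0253, which is 4.16% (3.33 to 5.13%) of its cells against 0.866 to 1.21% for the others. As a result, 37.6% (29.3 to 46.4%) of the SPP1-positive cells of hashtag 0253 were C1Q-positive, and 64.8% (50.6 to 77.3%) and 68.6% (54.1 to 80.9%) of those of 0252 and 0254. For hashtag 0255 the share was 44.1% (27.2 to 62.1%), from 34 cells.

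**Figure D5:**
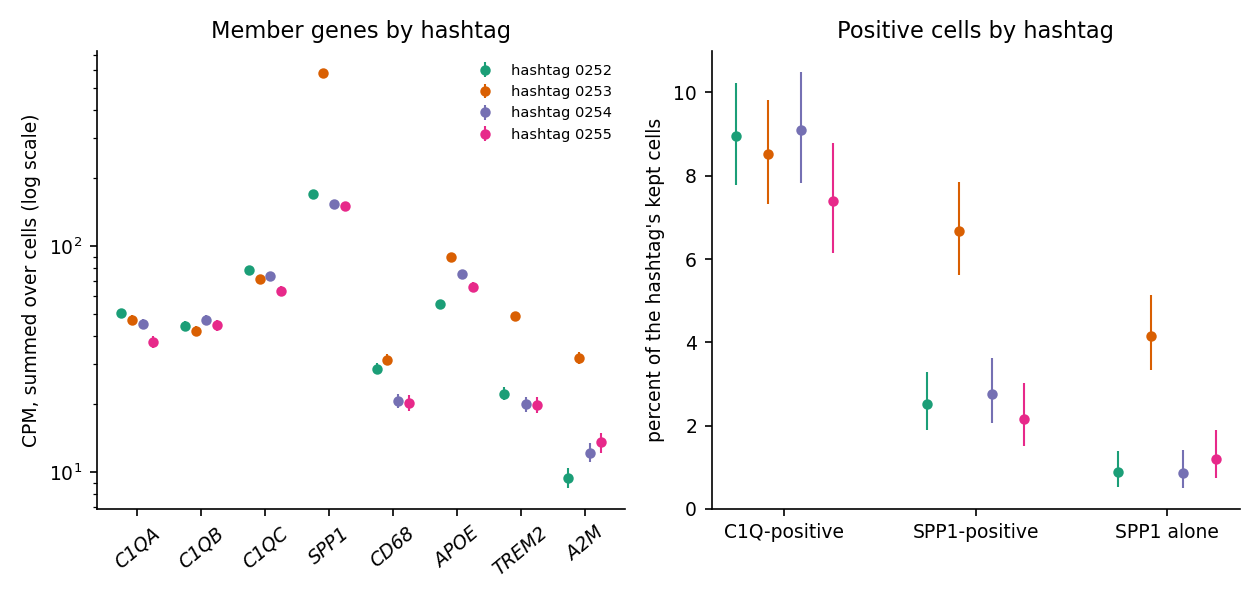
Left, level of 8 genes by hashtag (CPM, log scale, exact Poisson 95% intervals); right, percent of each hashtag's kept cells that were C1Q-positive, SPP1-positive or SPP1-positive alone (exact 95% intervals). Hashtag 0253 is highest for SPP1, TREM2 and A2M and has 6.66% SPP1-positive cells against 2.16 to 2.76% for the others, while C1Q-positive shares overlap.

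The difference was also found within cell groups. Among C1Q-positive cells SPP1 had 1997 CPM (1944 to 2052) for hashtag 0252, 3443 CPM (3374 to 3514) for 0253, 1287 CPM (1243 to 1331) for 0254 and 921 CPM (876 to 967) for 0255, whereas summed C1q ran from 2000 to 2381 CPM. The ratio of highest to lowest was 3.74 (3.55 to 3.95). When positive cells had to have 30 UMIs, or with a mitochondrial limit of 10% that left 736 cells, hashtag 0252 was highest instead of 0253. In cluster 6, SPP1 had 2417, 6751, 3149 and 3528 CPM and C1q 2336, 1350, 2387 and 1751 CPM for hashtags 0252 to 0255, and 50 of 174 cells (28.7%, 22.1 to 36.1%) of hashtag 0253 were SPP1-positive alone, against 3 of 176 (1.70%, 0.353 to 4.90%) of hashtag 0252 and 15 of 69 (21.7%, 12.7 to 33.3%) of 0255. The C1Q-positive share of cluster 6 was 72.2% (64.9 to 78.6%), 52.3% (44.6 to 59.9%), 75.8% (66.1 to 83.8%) and 59.4% (46.9 to 71.1%) in that order. It was lowest for hashtag 0253, whose interval did not overlap those of 0252 and 0254. In cluster 2, SPP1 had 338, 759, 97.9 and 103 CPM, so hashtags 0252 and 0253 were both above the others there.

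Outside positive cells SPP1 differed less among the hashtags. The 10 UMI limit that chose these cells also caps SPP1 in them, so a smaller difference was partly fixed in advance. Cells positive for neither had 12.8 CPM (11.7 to 14.0), 14.4 CPM (13.1 to 15.7), 13.5 CPM (12.2 to 14.8) and 12.5 CPM (11.2 to 13.9) for hashtags 0252 to 0255, highest for 0253 with overlapping intervals. In the low cells of the 8 clusters SPP1 had 10.0 CPM (8.99 to 11.1), 10.9 CPM (9.75 to 12.1), 12.6 CPM (11.4 to 14.0) and 11.7 CPM (10.3 to 13.1) for hashtags 0252 to 0255, lowest for 0252 and highest for 0254. C1q there had 8.70, 7.19, 5.61 and 6.83 CPM. Cells positive for neither also had TREM2 at 23.9 CPM (22.3 to 25.6) and A2M at 12.4 CPM (11.3 to 13.7) for hashtag 0253, against 8.65 to 12.3 CPM and 1.68 to 5.18 CPM for the other hashtags. Cell types differed among the hashtags, with 8.24%, 8.72%, 5.36% and 4.39% of their cells in cluster 6 and 17.9%, 19.8%, 5.31% and 4.01% in the neutrophil-like cluster. Their part in the differences over all cells was not tested beyond the values within clusters 2 and 6, and each hashtag is 1 pool, so that the difference between pools and the difference between coating conditions cannot be told apart.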

How the data were processed

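Nonadherent cells of 4 hashtag-labeled pools were captured in 1 droplet library (3′ counting), with a library of hashtag antibodies from the same cells. Per the labels' processing notes, the authors used Cell Ranger 6.0.1 with hg19. They deposited counts of UMIs per gene and hashtag, not normalized, and a hashtag call for each barcode. The depth of kept cells is given above; intervals cover counting error only.

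The 10 genes, the gene lists and the limits were chosen with earlier results of these data known. CPM were computed from summed counts, with a pseudocount of 1 CPM for log2 differences and a minimum of 200 UMIs per gene. Cells were thinned to 5000 UMIs with a fixed seed. Clusters came from counts scaled to 10000 per cell, 2380 variable genes less 9 of the 10 genes, 40 principal components, 15 neighbors and Leiden clustering at a resolution of 0.6. Gene positions came from GENCODE lifted to GRCh37 and promoters from RefSeq. Genes were named by rule: the 10 genes, up to 4 per list by the difference between C1Q-positive and C1Q-negative cells, the 10 highest correlations with C1q and with SPP1, and the 10 largest differences in each direction by SPP1 level. Python 3.11.15, scanpy 1.11.5 (with its Scrublet), leidenalg 0.10.2, pandas 2.3.3, scipy 1.17.1 and numpy 2.4.6 were used. The computation of group differences and correlations was tried on simulated Poisson counts. In that simulation the groups were not chosen by a gene's count, and the spread between cells was smaller than here. It therefore checks the computation only. Alternatives were other limits for a positive cell, thinning, other filters, Scrublet doublets removed, cells near a hashtag cutoff left out, other clusterings and other ways to rank genes. Barcodes called negative or doublet were not used for comparisons. A gene that the rule names is not reported here.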

Additional observations from a re-analysis of the deposited data

Results flagged for a closer look

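Barcodes without a single hashtag call were in no comparison, and C1q and SPP1 were found in both kinds. Of the 809 barcodes called negative that were within the limits on UMIs, genes and mitochondrial share, 4 were C1Q-positive (0.494%, 0.135 to 1.26%) and 7 SPP1-positive (0.865%, 0.349 to 1.77%), with 3 positive for both. Their C1q level was 15 CPM (13.0 to 17.3) and their SPP1 level 153 CPM (147 to 160), at a median of 15601 UMIs. Both shares lay below those of the kept cells, 8.54% and 3.60%. Of the 834 barcodes called doublets within the same limits, 12.8% (10.6 to 15.3%) were C1Q-positive and 5.28% (3.86 to 7.02%) SPP1-positive, at a median of 22004 UMIs. Of their 107 C1Q-positive barcodes 25.2% (17.3 to 34.6%) were also SPP1-positive, an interval that holds the 20.9% of the kept cells. The cause of these differences was not tested.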

How the results depend on the processing

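Of the alternatives, 37 values were counted as unmoved, inside the counting interval of the reported value, and 48 as moved. The lists of 10 genes have no interval and were judged by the number of genes shared. There 7 or 8 shared genes counted as unmoved and 6 as moved. With 1 library no replicate could be left out, and the results are values without a test. No paired analysis was possible because the series holds 1 library without replicate numbers. With positive cells called from 3 UMIs, 13.0% of cells were C1Q-positive, 25.5% of these were SPP1-positive, 61.0% of SPP1-positive cells were C1Q-positive and SPP1 in C1Q-negative cells was 73.6 CPM, in place of 8.54%, 20.9%, 49.6% and 148 CPM. With 30 UMIs these values were 3.23%, 16.4%, 21.7% and 222 CPM. Among C1Q-positive cells the ratio of the highest to the lowest hashtag was then 1.06 for C1q, with hashtag 0255 highest, and 3.39 for SPP1, with hashtag 0252 highest. After thinning to 5000 UMIs, with 3 UMIs as the limit, 9.30% were C1Q-positive, SPP1 in C1Q-negative cells was 158 CPM, and the ratios were 1.12 and 3.52. A mitochondrial limit of 10% left 736 cells, 50 of them C1Q-positive, and gave 6.79%, 228 CPM, a ratio of 3.73 for the C1Q-positive share by hashtag, 1.93 for C1q and 35.2 for SPP1. Without limits on UMIs or genes the SPP1 ratio was 3.45. Without cells near a hashtag cutoff 9.65% were C1Q-positive and SPP1 in C1Q-negative cells was 165 CPM. Without cells that had erythroid or stromal genes, an alternative chosen after seeing the data, SPP1 in C1Q-negative cells was 157 CPM and the SPP1 ratio 3.47.

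The level of C1q in the cluster with the most was 519 CPM at a resolution of 0.3, 2058 at 1.0, 1324, 1191, 1299, 1365 and 1355 with the 5 other seeds and 1526 with the 10 genes kept for clustering, in place of 1896 CPM. SPP1 was 893, 3648, 2585, 2335, 2640, 2656, 2717 and 2957 CPM in the same order, in place of 4332 CPM. At a resolution of 1.0 the clusters with the most C1q and with the most SPP1 were different clusters, and in the other clusterings they were the same cluster. The ratio of SPP1 to C1q in low cells, 1.56 as reported, was 2.06 at a resolution of 1.0, 2.06, 2.16, 1.80 and 2.16 with seeds 1, 3, 4 and 5, and 1.42 with the 10 genes kept. Of the 10 genes furthest down in SPP1-high cells, 6 were shared when SPP1-high cells had 10 UMIs or more and SPP1-low cells fewer than 3. MRC1 was 1.54 CPM with the UMIs of MRC1L1 added, also chosen after seeing the data. The cause of these shifts was not tested.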
